A study of Homo sapiens with 25 samples.

Results

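The comparison described here sets the RNAs recovered with the Y396E mutant of IGF2BP1 against those recovered with wild-type IGF2BP1 in unstressed cells, using 3 RNA immunoprecipitation sequencing (RIP-seq) libraries of each, 6 of the 25 libraries of the series. Both lines are HCT116 colon carcinoma cells carrying Tet-OsTIR1-PURO, in which the paralogs IGF2BP2 and IGF2BP3 were knocked out, and which express mCherry-IGF2BP1, WT or Y396E, from a lentiviral vector with the hPGK promoter. The control cells received PBS, and mCherry was pulled down with RFP-Trap beads. The members are these libraries by their labels, the raw counts of protein-coding genes and their TMM-scaled CPM, that is counts relative to the size of the library, which put libraries of unequal depth on 1 scale. Each line is a population sorted in a narrow mCherry gate, and the 3 dishes of a line were plated and grown independently, so the replicates are cultures of 1 population, not authenticated by the study, and a difference between lines includes anything else in which the populations differ. The S181E and RQ mutant lines, the same lines after 2 h with 500 µM sodium arsenite, and 1 parental HCT116 library without the fusion protein, which measures binding to the beads, were used for comparison. RNA-Seq of the same lysates was not analysed here, so a lower RIP level from less of an mRNA in the cells and one from less binding cannot be told apart.

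IGF2BP1 is an oncofetal RNA-binding protein with a pair of RRM domains followed by 4 KH domains, joined by disordered linkers. It binds many mRNAs, often in the 3'UTR, and is known for protecting targets from decay and from microRNAs and for transporting the beta-actin mRNA through a sequence called the zipcode. The tyrosine lies in the linker between KH2 and KH3, and glutamic acid at this place imitates a phosphorylated tyrosine. The question behind the comparison was whether this negative charge in a linker changes which RNAs the protein carries in cells.

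Stretches of ACTB and HMGA2, mRNAs that moved in opposite directions, are shown for reference. Those of HMGA2 are microRNA sites. Whether any of these sequences has a part in the changes was not tested. The zipcode of ACTB lies in the 3'UTR, on the minus strand at chr7:5527719-5527746 of hg38. Its CGGAC and ACAC elements, recognised by the pair of KH3 and KH4 together, are printed in capitals. The 4 places in the HMGA2 3'UTR, on the plus strand of chromosome 12 of hg38, that pair with the let-7 seed are printed with the matching CTACCTC in capitals. They lie at chr12:65963305-65963324, chr12:65964540-65964559, chr12:65964952-65964971 and chr12:65965805-65965824, and are followed by let-7a with its seed in capitals, taken from RefSeq.
ACTB zipcode: CGGACtatgacttagttgcgttACACcc
HMGA2 let-7 match 1: ttcgatttCTACCTCagcag
HMGA2 let-7 match 2: actcaataCTACCTCtgaat
HMGA2 let-7 match 3: gcaaagacCTACCTCcagac
HMGA2 let-7 match 4: acacactaCTACCTCttaag
hsa-let-7a-5p: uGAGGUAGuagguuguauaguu

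The 6 libraries held between 22246381 and 39499274 counts, of which 60.1 to 66.6% fell on protein-coding genes and most of the rest on mitochondrial rRNA. Y396E control replicate 3 stood apart from the other 2 Y396E control libraries in a small number of mRNAs, of which 12 were more than 4-fold above both. The parental control library had only 742207 protein-coding counts, so that 1 count equalled 0.675 CPM. The mRNAs of all 7 colon epithelial markers were present in every library, with a summed level of 1021.5 to 1304 CPM in wild-type and 1170 to 1451 CPM in Y396E. Of the 6 leukocyte markers at least 4 were at 0 in each library, the summed fibroblast markers reached at most 9.83 CPM and the endothelial ones at most 1.40 CPM.

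The bait's own mRNA was counted at 70.1, 68.1 and 60.9 CPM in the wild-type libraries and at 98.7, 109 and 71.4 CPM in the Y396E libraries. The ranges did not overlap, and IGF2BP1 was not counted in the parental control library. The log2 fold change was 0.50 (standard error 0.12, edgeR adjusted p = 0.0027), which says nothing of the amount of protein pulled down. Counts per gene do not separate endogenous from vector-derived transcripts and do not show the mutated codon. The study states that HCT116 cells do not express IGF2BP1, and the parental arsenite library also held 0 CPM of it. The call was lost when only the groups compared were in the model, at a log2 fold change of 0.49 (edgeR adjusted p = 0.067), and when edgeR's glmTreat tested the change against 20% (adjusted p = 0.0521). Reads on the paralogs do not test the knockouts, which can leave an mRNA in place. IGF2BP3 was counted at 245 ± 17.4 CPM (SD, n = 3) in wild-type and rose to 378 ± 15.9 CPM (SD, n = 3) in Y396E (log2 fold change 0.64, edgeR adjusted p = 2.21e-06). IGF2BP2 was at 211 ± 37.2 and 189 ± 28.9 CPM (SD, n = 3) and was not called (adjusted p = 0.48).

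In the Y396E RIP, the mRNA of the cytoplasmic poly(A)-binding protein lost more level than any other, and the mRNAs of the chromatin-associated HMGA2 and the Polycomb protein PHC3 fell with it. The mRNAs of beta- and gamma-actin, of tubulin and of the antioxidant enzyme thioredoxin reductase rose. Both actin mRNAs stayed below their levels in the parental library in both lines, that is within the bead background. Of 8734 genes tested, 1112 were called lower (12.7%) and 1411 higher (16.2%) in Y396E than in wild-type by edgeR's quasi-likelihood test at a Benjamini-Hochberg adjusted p under 0.05 and a change over 20%. Over all these genes the median of the log2 fold change was 0.05. Among the called genes few changed more than 2-fold, 103 below −1 and 81 above 1 on the log2 scale. In 3165 genes (36.2%) the 3 and 3 libraries did not overlap, and 2284 of these were called. The split of the calls depended on the scaling, with 485 lower and 3668 higher (11.7% of calls lower) for total protein-coding counts, and 1777 lower and 692 higher (72% lower) for TMM factors from bead-level genes, those no higher in the S181E and RQ pull-downs than in the parental library, against 44.1% lower with TMM over all genes. The first moved that median to 0.32 and the second to −0.10, and the changes below are relative to the TMM scale.

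**Figure D1:**
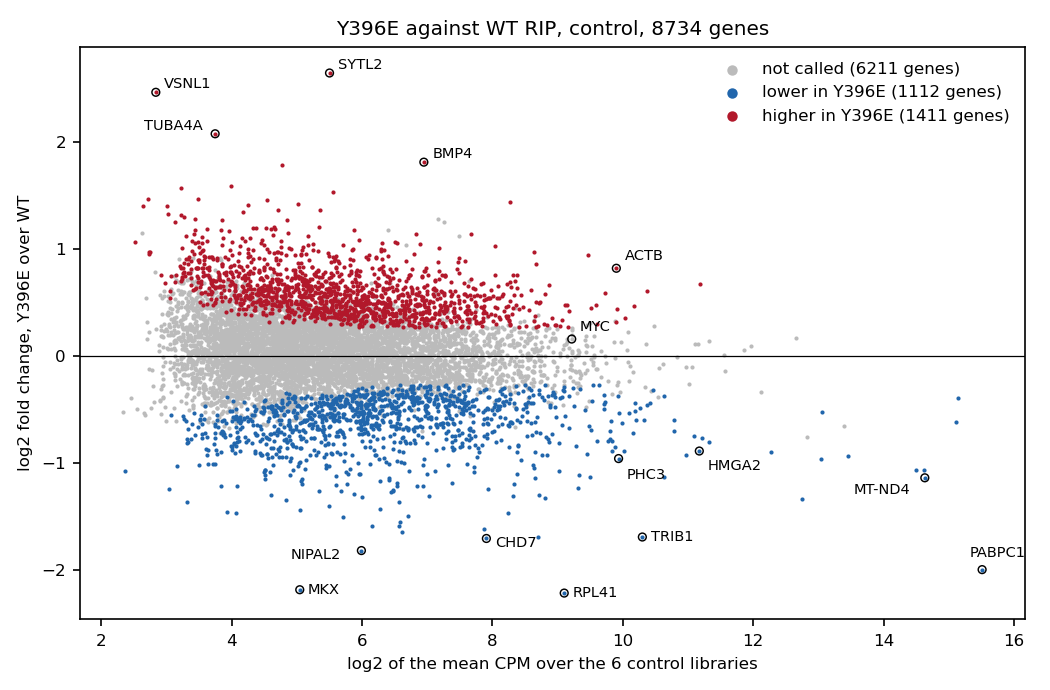
Each point is 1 of the 8734 genes, with its log2 fold change in the Y396E RIP over the wild-type RIP against the log2 of its mean CPM over the 6 control libraries. The 1112 genes called lower are blue and the 1411 called higher are red, and named genes are circled. PABPC1 lies far to the right at −1.998, while the largest increases, such as SYTL2 at 2.64, are at low levels.

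PABPC1, the main cytoplasmic poly(A)-binding protein, which coats mRNA tails and promotes translation, was the most abundant protein-coding mRNA of the wild-type RIP. Its gene lies on the minus strand at chr8:100702051-100722762 of hg38. It was counted at 70826, 73331 and 80510 CPM in wild-type and at 20384, 16723 and 18512 CPM in Y396E, and the groups lay far apart. The log2 fold change was −1.998 (standard error 0.12, edgeR adjusted p = 1.8e-10). PABPC1 alone took 6.44 ± 0.15% of the protein-coding counts in wild-type and 1.95 ± 0.15% in Y396E (SD, n = 3). Its level in the parental library was 2038 CPM. Reads shared with PABPC1 pseudogenes were left out by the counting, so these levels may be too low in all libraries alike.

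HMGA2, an architectural chromatin protein of embryonic and tumour cells (chr12:65824460-65966291, plus strand), was at 2861, 2776 and 3398 CPM in wild-type and at 1663, 1422 and 1738 CPM in Y396E. Every Y396E library was below every wild-type library, with a log2 fold change of −0.89 (standard error 0.12, edgeR adjusted p = 7.6e-06). PHC3, a subunit of Polycomb repressive complex 1 (chr3:170087584-170181749, minus strand), fell from 1165, 1394 and 1335 CPM to 688, 585 and 706 CPM (log2 fold change −0.96, edgeR adjusted p = 1.0e-07). It had no parental count. GARS1, the glycyl-tRNA synthetase, also fell (−0.45, edgeR adjusted p = 0.0048), with a parental level of 170 CPM that was above its levels in both lines.

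ACTB, the zipcode-bearing mRNA (chr7:5526409-5563902, minus strand), rose from 723, 722 and 644 CPM to 1089, 1287 and 1270 CPM in Y396E. The log2 fold change was 0.82 (standard error 0.15, edgeR adjusted p = 0.00029). Its parental level of 2605 CPM was higher than in either line, so that the ACTB reads of these pull-downs were not above the bead background of that 1 library. ACTG1, the other cytoplasmic actin, rose from 1868, 1968 and 1602 CPM to 2589, 3166 and 2800 CPM (0.67, adjusted p = 0.0020) against 3734 CPM in the parental library. LIPA, a lysosomal lipase, rose from 17.1, 19.7 and 13.7 CPM to 26.9, 24.3 and 26.0 CPM (0.63, adjusted p = 0.0067).

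MYC (chr8:127735434-127742951, plus strand) has a coding region with an instability element that IGF2BP1 shields. Its levels were 558, 574 and 565 CPM in wild-type and 557, 616 and 699 CPM in Y396E. MYC was at 310 CPM in the parental library. It was not called, at a log2 fold change of 0.16 (edgeR adjusted p = 0.21), and its sign turned with TMM factors from bead-level genes. XBP1 (−0.21) and EIF2A (0.17) were not called. IGF2 and CCDC127 stayed under the filter on low counts and were not tested, with CCDC127 at 6.02, 8.06 and 3.68 CPM in wild-type and 12.3, 11.96 and 11.2 CPM in Y396E.

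**Figure D2:**
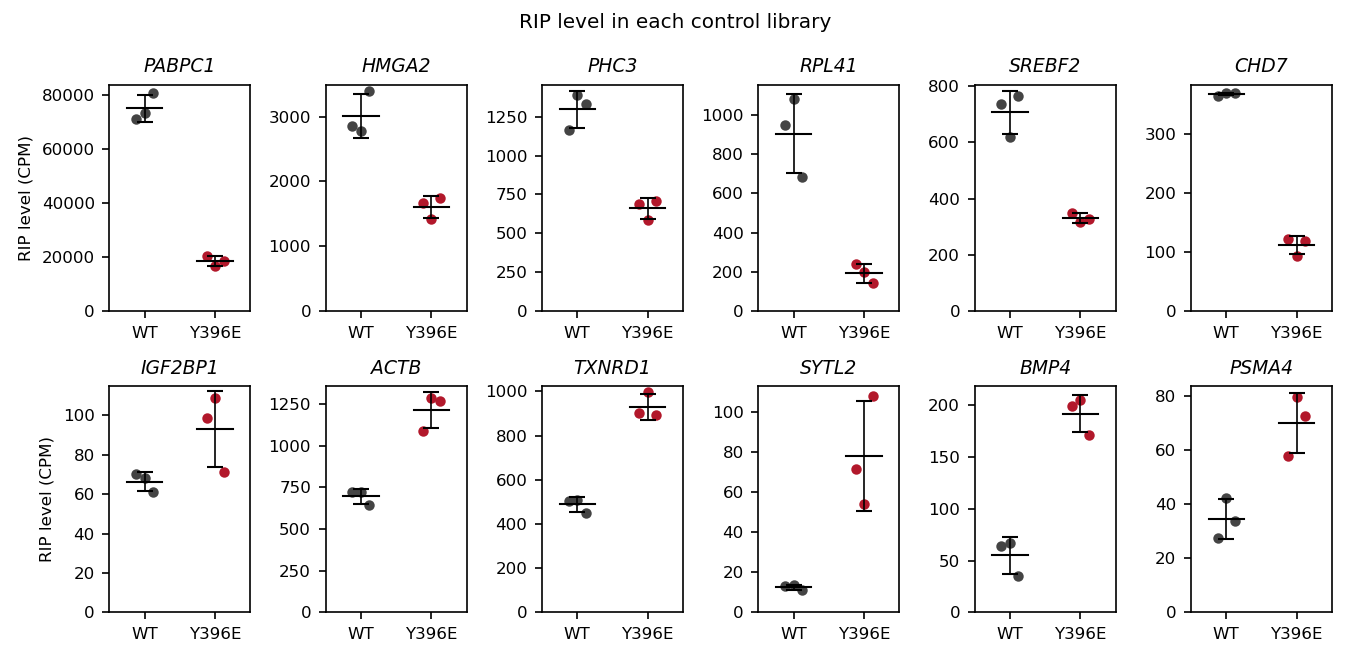
Points are the RIP level in CPM in each wild-type (grey) and Y396E (red) control library, with lines and bars for the mean and SD of 3 libraries. The y axes start at 0 and differ between panels. In all 12 genes shown every Y396E library lies on 1 side of every wild-type library.

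Of the 10 called mRNAs with the lowest fold changes, 6 lie on chromosome 8. RPL41, the smallest ribosomal protein, was at 951, 1082 and 684 CPM in wild-type and at 240, 197 and 141 CPM in Y396E, the lowest fold change of all called genes with groups apart (log2 −2.22, edgeR adjusted p = 1.2e-07). MKX, a homeobox transcription factor of tendon, followed at 38.4, 51.5 and 72.8 CPM against 11.7, 9.36 and 14.1 CPM (−2.19, adjusted p = 1.4e-07). Outside chromosome 8 the list of 10 also held TFPI, the inhibitor of tissue factor in coagulation (−1.65), and KLK7, a secreted serine protease (−1.59). KLK7 was at 65.5 CPM in the parental library, between its means of 143 CPM in wild-type and 46.9 CPM in Y396E. Those on chromosome 8 were PABPC1, the magnesium transporter relative NIPAL2 (−1.82), the chromodomain remodeller CHD7 (−1.71), UBXN2B (−1.70), the pseudokinase TRIB1 (−1.69) and the ribosomal protein gene RPS20 (−1.62). RPS20 was at 711 CPM in the parental library, above its means of 356 CPM in wild-type and 114 CPM in Y396E. TRIB1 was among the most abundant of these, with 2059, 1598 and 2133 CPM in wild-type and 641, 497 and 633 CPM in Y396E.

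The largest increases were in mRNAs of low level. SYTL2, which links vesicles to RAB27 (chr11:85694224-85811159, minus strand), rose from 12.97, 13.7 and 11.1 CPM to 71.7, 54.2 and 108 CPM (log2 fold change 2.64, standard error 0.21, edgeR adjusted p = 1.3e-08). Its parental level of 29.7 CPM was above every wild-type library and below every Y396E library. BMP4, a secreted growth factor, rose from 63.8, 66.6 and 34.9 CPM to 199, 205 and 171 CPM (1.81, adjusted p = 3.2e-08). The parental library held 63.4 CPM of BMP4, above its wild-type mean of 55.1 CPM. The calcium sensor VSNL1 (2.46), the alpha-tubulin TUBA4A (2.08), the G-protein subunit GNAL (1.78), the microtubule-binding EML1 (1.59), the hexosamine enzyme GFPT2 (1.57, with 29.0 CPM in the parental library against means of 4.67 and 13.98 CPM) and the transcription factor KLF2 (1.53) completed the upper ranks with LZTS1 and SLC26A11 (both 1.47). VSNL1 was counted at 4.84, 1.12 and 0 CPM in wild-type, so its fold change depends on very few reads. In terms of level, the largest gains among the called genes named were those of ACTG1, the beta-tubulin TUBB (0.61), ACTB, TXNRD1 and the translation regulator EIF4G2 (0.46). TXNRD1, the thioredoxin reductase, rose from 505, 510 and 450 CPM to 901, 997 and 894 CPM (0.95, adjusted p = 4.2e-08).

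Genes beyond the largest gene-free gap of chromosome 8, which in hg38 runs from position 43674591 to 46028804 and separates its short from its long side, were mostly lower in Y396E. Of the 196 tested there, 126 were called lower (64.3%) and 1 higher, KLF10, and 180 had a log2 fold change below 0. Their median was −0.57, with quartiles of −0.86 and −0.28. With total counts 81 were lower and 10 higher (median −0.30), and with TMM factors from bead-level genes 147 were lower and 0 higher (median −0.73). On the first side of the same chromosome 13 of 117 were lower and 23 higher, with a median of 0.08. The other 42 chromosome sides with at least 20 tested genes had medians from −0.06 to 0.17 and 6.02 to 19.7% of genes lower. Without the second side of chromosome 8, 986 of 8538 genes were lower (11.5%) and 1410 higher (16.5%).

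The shift extended along the whole side. In windows of 10 Mb from 50 to 150 Mb, each held a median between −0.88 and −0.45, and 50 to 100% of its genes were called lower. The window from 40 to 50 Mb, which contains the gap, had a median of −0.15. Leaving out PABPC1, these genes took 2.27 ± 0.04% of the protein-coding counts in wild-type and 1.62 ± 0.03% in Y396E (SD, n = 3). The ranges did not overlap, and the exact two-sided permutation p was 0.1, the smallest that 3 against 3 libraries allow. The same side was lower in the separate arsenite libraries of these lines, where its median Y396E to wild-type difference was −0.66, with 133 genes lower and 0 higher, where 19.4% and 13.1% of all genes were called lower and higher. In S181E control libraries, set against the same wild-type libraries, the median was −0.53, with 110 lower and 0 higher, where 8% and 12.8% of all genes were called lower and higher. In RQ it was 0.05, with 5 lower and 7 higher, where 2.83% and 3.51% of all genes were called, 6.34% in all. The division was chosen after the values were seen and is given as a description. DNA was not measured, and the part of copy number or RNA level in this shift was not tested.

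**Figure D3:**
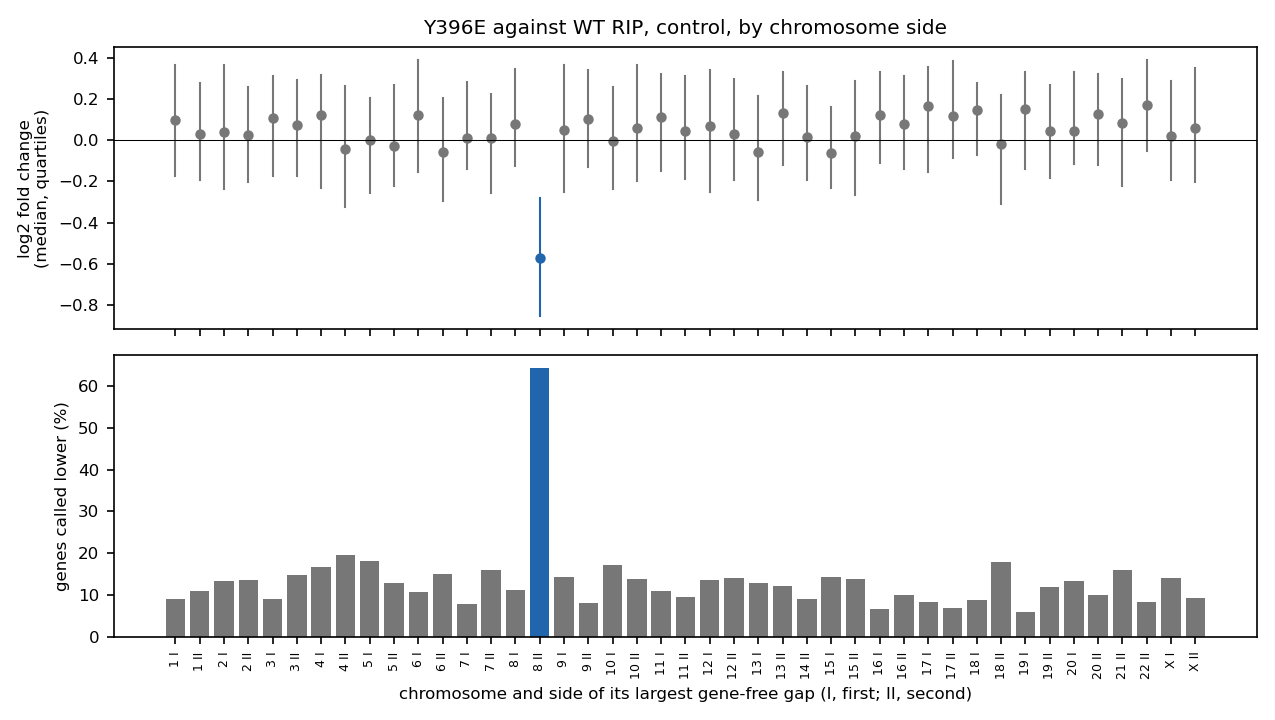
The upper panel gives the median and quartiles of the log2 fold change, Y396E over wild-type, for the genes on each side of the largest gene-free gap of a chromosome, and the lower panel the percentage of those genes called lower. Sides with fewer than 20 tested genes are left out. The second side of chromosome 8, in blue, is at −0.57 and 64.3%, while the other 42 sides lie between −0.06 and 0.17 and at or below 19.7%.

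The mRNAs encoded by mitochondrial DNA, which are made and translated inside the organelle, were lower as well. Of 13 tested, 10 were called lower (76.9%, against 12.7% of all genes) and none higher, with a median log2 fold change of −0.93. MT-ND4, a subunit of complex I, was at 27316, 32359 and 45542 CPM in wild-type and at 15529, 11116 and 20539 CPM in Y396E (−1.14, edgeR adjusted p = 0.00075). MT-CYB, of complex III, fell by 1.06 on the log2 scale and MT-CO3, of complex IV, by 1.07. Together the 13 mRNAs took 17.4 ± 3.03% of the protein-coding counts in wild-type and 11.1 ± 2.54% in Y396E (SD, n = 3). MT-ND6 (0.08), MT-ND2 (−0.76) and MT-ND5 (−0.65) were not called, and the 10 calls became 9 with total counts and 11 with TMM factors from bead-level genes. Reads from nuclear copies of mitochondrial DNA cannot be separated where they match.

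Few ribosomal protein mRNAs were called, and many proteasome mRNAs were higher. Of 79 cytosolic ribosomal protein mRNAs tested, 13 were lower (16.5%, near the 12.7% of all genes) and none higher (against 16.2% of all genes), with a median of −0.25 that varied by 0.37 (SD) between the Y396E libraries. RPL41, RPS20 and RPL29 (−1.13, edgeR adjusted p = 2.5e-07) led the list. With total counts 5 were lower and 4 higher and the median was 0.03. Ribosomal protein genes have many pseudogenes, and reads shared with them were not counted. Of 61 mitochondrial ribosomal protein mRNAs, 3 were lower, led by MRPL18 (−1.14), and 8 higher (4.92% and 13.1%). Of 64 nuclear-encoded respiratory chain mRNAs 4 were lower and 6 higher (6.25% and 9.38%). These shares were below those of all genes in both directions. The lower ones were led by UQCRB (−1.20), and UQCRB and NDUFB9 (−0.60) lie on the second side of chromosome 8.

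Of 39 proteasome mRNAs, 18 were higher (46.2%, against 16.2% of all genes) and 2 lower, with a median of 0.44. The increases included the core subunit PSMA4, which rose from 27.7, 42.4 and 34.0 CPM to 58.1, 79.7 and 72.6 CPM (1.04, edgeR adjusted p = 0.00013), and the lid subunits PSMD14 (0.93) and PSMD13 (0.92). The parental library held 66.8 CPM of PSMA4, near the Y396E level. The same direction was seen under total counts, with 29 higher and none lower, and under TMM factors from bead-level genes, with 12 higher and 3 lower. Of 32 hnRNP and SR splicing factor mRNAs 13 were higher (40.6%), among them HNRNPAB (0.82) and HNRNPF (0.63), and 1 was lower, HNRNPH2 (−0.66). With the second of these scalings 4 were higher. Of 36 actins and actin regulators 9 were higher (25%) and none lower, and beside the actins VASP, which promotes filament growth, rose by 0.65. With the second scaling 4 were higher and 2 lower.

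Translation initiation factors went both ways. Of 39 tested, 12 were higher (30.8%, against 16.2% of all genes) and 4 lower (10.3%, against 12.7%). EIF2B1, a subunit of the guanine exchange factor of eIF2, rose most (1.13, edgeR adjusted p = 0.00013), from a mean of 15.8 to 33.9 CPM, with 39.8 CPM in the parental library. EIF4E3 (0.97) and EIF5 (0.75) rose too. EIF3E, a subunit of eIF3, was at 819, 995 and 885 CPM in wild-type and at 400, 365 and 366 CPM in Y396E (−1.24, adjusted p = 1.8e-08), and EIF3H fell by 0.83. Both EIF3 genes lie on the second side of chromosome 8. Of the 12 EIF3 mRNAs tested EIF3B was higher (0.73) and 9 were not called. EIF4G3 (−0.75), a scaffold that binds poly(A)-binding protein, was lower and its relative EIF4G1 (0.41) higher. Of 18 mRNAs of poly(A)-binding proteins and their partners 4 were lower (22.2%), among them PABPC1, EIF4G3 and ATXN2 (−0.51), and 2 higher (11.1%), EIF4G1 and PAIP2 (0.38). The call of EIF4G1 was lost under 8 alternatives and that of PAIP2 under 14.

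Cholesterol synthesis mRNAs were lower in 9 of 22 (40.9%, against 12.7% of all genes) and higher in 1 (4.55%, against 16.2%), with a median of −0.27. SREBF2, the transcription factor that drives the pathway, fell from 735, 620 and 764 CPM to 350, 318 and 326 CPM (−1.08, standard error 0.10, edgeR adjusted p = 5.3e-08). The enzymes SQLE (−1.06) and TM7SF2 (−0.91) fell, and FDPS (0.75) rose. SQLE lies on the second side of chromosome 8. With total counts 3 of the list were lower and 3 higher. Of 26 chromatin remodelling mRNAs 7 were lower (26.9%), with CHD7, BPTF (−0.89) and ARID1A (−0.89) first, and 3 higher (11.5%), with SMARCB1 (0.93) first. Among 25 Polycomb mRNAs PHC3, PCGF6 (−0.62) and RYBP (−0.45) were lower (12%, near the share of all genes) and 2 were higher (8%).

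**Figure D4:**
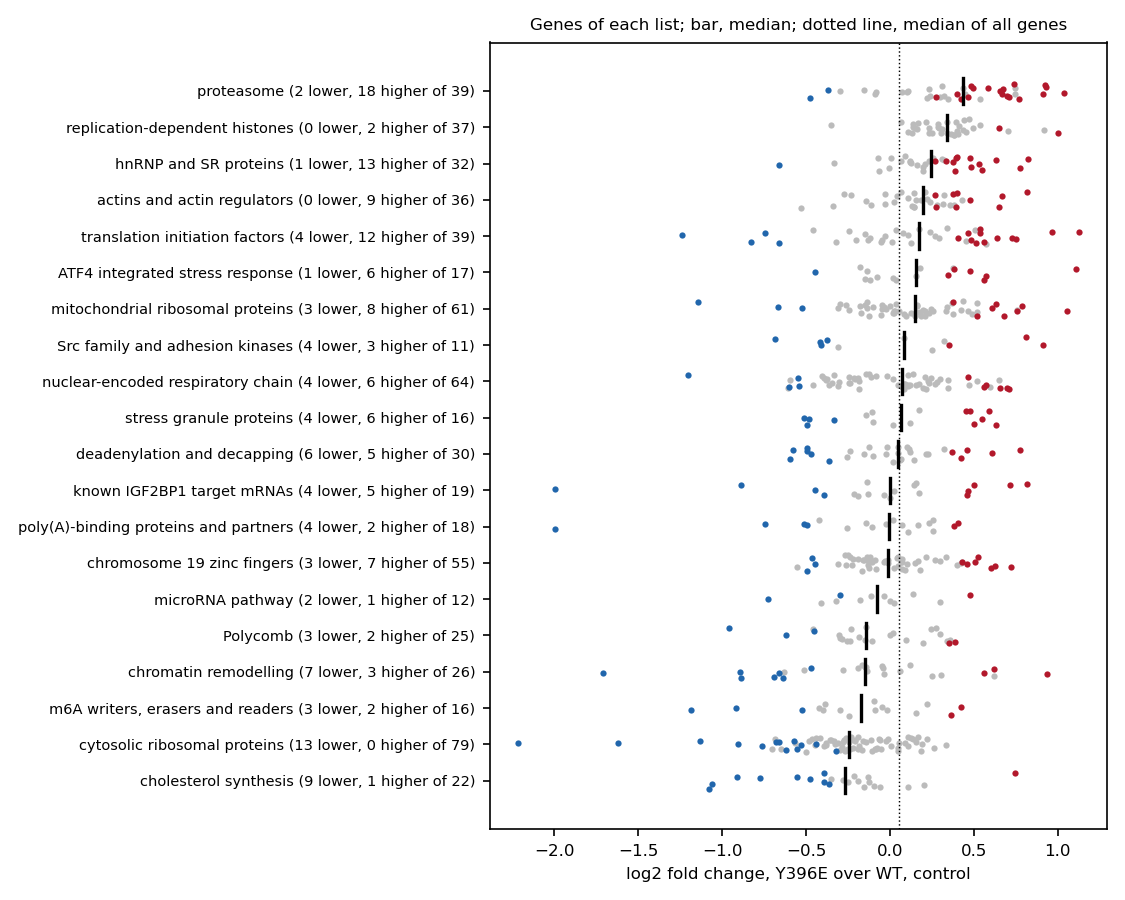
Each point is a tested gene of a list, placed by its log2 fold change, Y396E over wild-type, with blue for genes called lower and red for genes called higher. Black bars are list medians and the dotted line is the median of all 8734 genes, 0.05. The proteasome list lies farthest to the right, at 0.44, and the cholesterol synthesis list farthest to the left, at −0.27.

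The remaining lists are to be read against the 12.7% of all genes called lower and the 16.2% called higher. Of 19 tested mRNAs described elsewhere as IGF2BP1 targets, 4 were lower, with PABPC1, HMGA2 and the adhesion receptor CD44 (−0.45) first, and 5 were higher, with ACTB and the cell cycle regulators E2F1 (0.71) and FOXM1 (0.50) first. ACTB, as given above, was below its parental level in both lines. PABPC1 and MYC, the latter not called, lie on the second side of chromosome 8. The list contains mRNAs that the study reported from these libraries, so its counts are no independent evidence. For m6A writers, erasers and readers 3 of 16 were lower and 2 higher. The reader YTHDF3 (−1.19) and the writer subunit VIRMA (−0.92), both on the second side of chromosome 8, and CBLL1 (−0.53) fell, while YTHDF1 (0.42) and the eraser ALKBH5 (0.36) rose. In the microRNA pathway AGO2, which lies on the same side of chromosome 8, fell by 0.72 on the log2 scale (edgeR adjusted p = 0.0032), within a list of 12 with 2 lower and 1 higher.

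Beside the same shares of all genes, 12.7% lower and 16.2% higher, 4 of 16 stress granule protein mRNAs were lower (25%), among them ATXN2, YBX1 (−0.50) and UBAP2L (−0.48), and 6 higher (37.5%), among them G3BP1 (0.50), DDX3X (0.59) and TIA1 (0.55). For deadenylation and decapping 6 of 30 were lower (20%), with CNOT6 (−0.59), LSM3 (−0.58) and PAN3 (−0.50), and 5 higher (16.7%), with CNOT11 (0.78). For Src family and adhesion kinases 4 of 11 were lower, with LYN (−0.69, second side of chromosome 8) first, and 3 higher, with ILK (0.91) and CSK (0.81) first. The ATF4 stress response list had 1 of 17 lower, GARS1, and 6 higher, with PHGDH (1.11), PSAT1 (0.57) and SLC7A11 (0.56), which supply serine and cystine. Of 37 replication-dependent histone mRNAs 2 were called, H3C1 (1.00) and H1-4 (0.65), both higher, and of 55 chromosome 19 zinc finger mRNAs 3 were lower and 7 higher. Of the 7 epithelial markers CLDN4 (−0.77) was lower and KRT8 (0.50) higher.

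Levels over the bead background and gene features varied with the fold change only weakly. Enrichment was taken from the S181E and RQ control libraries over the parental control library, so that it shared no library with the comparison. Of the 2403 bead-level genes 7.16% fell and 20.9% rose in Y396E (median 0.16), and of 1621 genes at least 16-fold over the parental level 21% were lower and 11.1% higher (median −0.08). The bead-level genes took 11.3 ± 1.05% of the protein-coding counts in wild-type and 14.9 ± 1.28% in Y396E (SD, n = 3; exact permutation p = 0.1, the smallest possible). Shares of 1 total depend on each other, and PABPC1 (6.44 to 1.95%) and the mitochondrial mRNAs (17.4 to 11.1%) took less of it in Y396E. With 3572 genes at 0 in the shallow parental library, many of the ratios are lower bounds against a floor of 3 counts, for counting error only.

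Long mRNAs leaned down. In the top tertile of mRNA length, from 4801 bases, 17.1% were lower and 10.9% higher, and in the bottom tertile, up to 2705 bases, 9.82% were lower and 18.8% higher. The same held for the 3'UTR, with 16.1% lower in the top tertile and 9.44% in the bottom one. Across the 8734 genes, which are not independent of each other, Spearman's rho with the fold change was −0.18 for mRNA length and 0.18 for its GC content. Of the 1063 genes whose 3'UTR holds the let-7 seed match CTACCTC (searched on the mRNA strand), 14.1% were lower and 13.9% higher, against 12.5 and 16.5% of the others. This match is found in 9.77% of the 3'UTRs of all protein-coding genes. For GGACT, the core of the m6A consensus, which 57.4% of 3'UTRs hold, the shares were 13% lower and 15.9% higher with it, and 12.2 and 16.6% without. For ATTTA in the 3'UTR they were 14.1% lower and 15.5% higher with it, and 8.48 and 18.2% without. In the top tertile of mean CPM in the S181E and RQ control libraries 20.4% were lower and 16.9% higher. In the bottom tertile 6.11% were lower and 13.8% higher. How far these features run together was not tested.

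The arsenite libraries tell whether the Y396E difference was the same after stress. By the interaction term of the edgeR model, the Y396E to wild-type fold change was lower in arsenite than in control for 210 genes (2.4%) and higher for 39 (0.447%), together 2.85%. With 1 library left out the counts ranged from 78 to 320 lower and from 17 to 74 higher, with 78 and 17 without WT arsenite replicate 1, 88 and 17 without Y396E control replicate 3, 93 and 17 without Y396E arsenite replicate 2, and 320 and 74 without WT control replicate 3. With total counts 538 were lower, and with TMM factors from bead-level genes 89. CCNA2, the cyclin of S phase and G2, was higher in Y396E in control, at 49.4, 55.8 and 61.2 CPM in wild-type and 91.5, 90.7 and 125 CPM in Y396E (log2 fold change 0.90), and lower in arsenite (−0.67), an interaction of −1.58 (standard error 0.17, adjusted p = 1.4e-05). The mitotic kinase NEK2 (1.25 in control and −0.07 in arsenite), the Aurora A-binding AUNIP (0.56 and −0.83) and ZNF25 (0.91 and −0.59) followed the same order. DCAF6, not called in control (0.27), was at −1.12 in arsenite.

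In the other direction the growth factor gene HBEGF was at 37.3, 35.5 and 57.4 CPM in wild-type and 24.4, 20.1 and 26.4 CPM in Y396E under control conditions (−0.86) and at 0.27 in arsenite, an interaction of 1.13 (standard error 0.27, adjusted p = 0.0201). WNT9A (−0.92 and 0.21) behaved alike, METTL3 went from −0.30 to 0.91, and the keratin KRT80 from 0.40 to 1.53. Ribosomal protein mRNAs, with 13 lower and none higher in control, had 4 lower and 9 higher in arsenite, and their median was −0.25 and 0.30. Replication-dependent histone mRNAs were higher in 2 of 37 in control and in 18 in arsenite. The difference of these lists between treatments was not tested. The interaction was not called for PABPC1 (−1.998 in control and −1.95 in arsenite), PHC3 (−0.96 and −0.63) or HMGA2 (−0.89 and −1.22). It was called lower for BMP4 (1.81 and 0.59, edgeR adjusted p = 0.00279), GFPT2 (1.57 and 0.29, adjusted p = 0.0171), EIF4G2 (0.46 and −0.04, adjusted p = 0.0094) and IGF2BP3 (0.64 and 0.17, adjusted p = 0.0193). Among the other genes named above it was also called lower for CNOT11 and TM7SF2 and higher for LSM3, RPL29, MRPL18 and CLDN4. In arsenite 1692 genes (19.4%) were lower and 1146 (13.1%) higher.

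**Figure D5:**
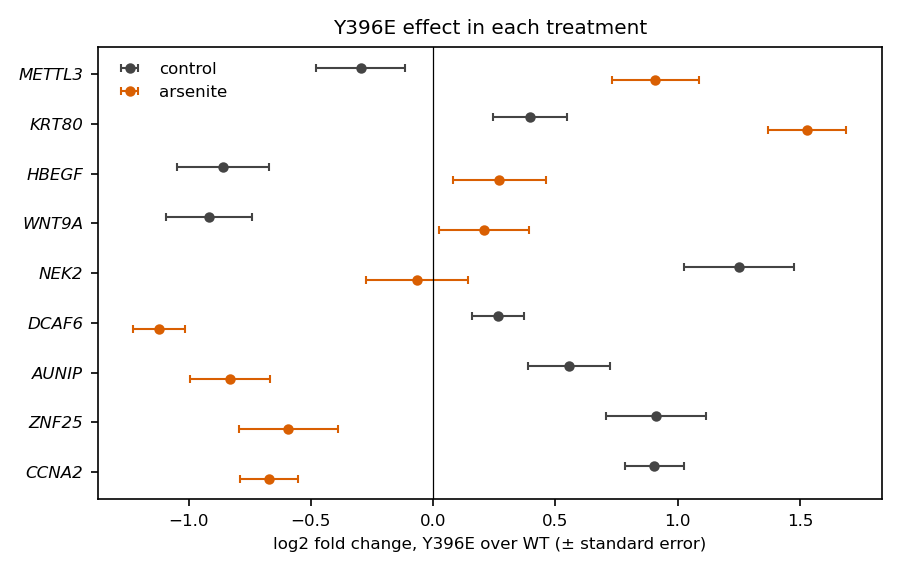
Points are the log2 fold change, Y396E over wild-type, under control conditions (grey) and in arsenite (orange), with bars for the standard error of the edgeR fit, for called genes whose interaction was among the 5 lowest or the 5 highest. CCNA2 lies at 0.90 in control and −0.67 in arsenite, and HBEGF at −0.86 and 0.27.

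The other linker mutants were set against Y396E under control conditions to test where the mutants differ. S181E, a phosphomimetic in the first linker, and RQ, with arginines of that linker replaced by glutamine, were compared with the same Y396E libraries, so these tests share them with the comparison above. Against S181E 569 genes (6.51%) were lower and 314 (3.6%) higher in Y396E, together 10.1%. HMGA2 was 2662 ± 274 CPM (SD, n = 3) in S181E and lower in Y396E (−0.72, edgeR adjusted p = 0.0011), as were RPL41 (−1.65), the mitochondrial chaperone HSPD1 (−1.01), SNX3 (−1.04) and PABPC1 (−0.58, adjusted p = 0.0050). PHC3, at 696 ± 34.3 CPM (SD, n = 3) in S181E, was not called (−0.07, adjusted p = 0.63), and neither were SYTL2 (−0.08), BMP4 (0.11), MKX (−0.18) or SREBF2 (0.08). A model of the control libraries alone called 97 lower and 9 higher against S181E. With the replicate number as a block, which pairs libraries of the same number, 1252 were lower and 1149 higher. Leaving out Y396E replicate 2 left 130 lower and 41 higher.

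Against RQ, 1046 genes (12%) were lower and 1110 (12.7%) higher in Y396E. With the replicate block 1430 were lower and 1383 higher. HMGA2 was 3446 ± 289 CPM (SD, n = 3) in RQ and lower in Y396E (−1.08, edgeR adjusted p = 6.4e-07), and so were PABPC1 (−1.43), MKX (−2.34), the spermidine acetyltransferase SAT1 (−1.96) and the growth factor AREG (−1.73). PHC3 was 786 ± 50.5 CPM (SD, n = 3) in RQ and was not called (−0.24, adjusted p = 0.061). SYTL2 (2.93), BMP4 (1.84) and CCNA2 (1.09) were higher. The genes IQGAP1 (2.27), LIMA1 (1.93) and KIAA1671 (1.93), also called higher, rest on Y396E replicate 3, in which they were at 561, 599 and 478 CPM against at most 42.7, 69.0 and 71.9 CPM in the other 2 libraries, and without it they were at −0.12, 0.05 and 0.28.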

How the data were processed

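Counts per gene were those the authors deposited, not normalized: reads were demultiplexed with bcl2fastq 2.20.0.422, checked with FastQC 0.11.9, aligned to hg38 with STAR 2.7.11b and counted on GENCODE release 46 exons with featureCounts of Subread 2.0.6, by strand and without multi-mapping reads per the file headers. Names and biotypes came from GENCODE release 44 (62541 of 63086 identifiers matched, 20044 protein-coding). In edgeR 4.0.16 (R 4.3.3, limma 3.58.1, DESeq2 1.42.0), as in the study's methods, the 8734 protein-coding genes that exceeded 10 CPM in 11.5 or more of the libraries with the fusion protein (23 in all) entered 1 quasi-likelihood model with 8 groups (15 residual degrees of freedom). Printed CPM use TMM factors over all 25 libraries. Standard errors were derived from the quasi-likelihood F. Exact permutation tests were two-sided. Figures used Python 3.11.15, pandas 2.3.3 and matplotlib 3.10.9. Depth, from 22246381 to 39499274 counts in the 6 libraries, limits genes near the filter most.

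On simulated data 8701 genes passed the filter and 200 were changed. For Y396E against wild-type 41.8, 87.9 and 100% of changes of 0.5, 1 and 2 in log2 were called. There were 8 false calls among 161. The simulated replicates were independent and few genes changed, in random directions, so these rates need not hold for the real libraries.

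Named genes are the bait and its paralogs, mRNAs named in the study, the 10 lowest and 10 highest called log2 fold changes with groups apart, the 5 largest losses and gains in CPM, up to 3 called members per direction of each list, and the 5 lowest and highest called differences of each other test. Same-numbered replicates deviated together for Y396E and S181E (r = 0.13, 0.47 and 0.57, from the data, since the labels name no shared batch). For Y396E and RQ replicates 2 and 3 did so as well (r = 0.58 and 0.47), and replicate 1 did not (r = 0.06). Some items are not reported here. Members, lists and the rule were chosen with earlier results of these data known. Alternatives covered scaling, test, filter, genes, libraries in the model, a replicate block and leaving out each library.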

Additional observations from a re-analysis of the deposited data

Results flagged for a closer look

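The Y396E to wild-type difference itself differed between treatments for 210 genes with a lower and 39 with a higher log2 fold change in arsenite, by the interaction term of the edgeR model. With 1 library left out these counts were between 78 and 320 lower, and between 17 and 74 higher, lowest without WT arsenite replicate 1 and highest without WT control replicate 3. The lowest differences (arsenite minus control, log2) were those of CCNA2 at −1.58 (edgeR adjusted p = 1.42e-05), ZNF25 at −1.50 (adjusted p = 0.005), AUNIP at −1.39 (adjusted p = 0.00219), DCAF6 at −1.39 (adjusted p = 1.42e-05) and NEK2 at −1.31 (adjusted p = 0.0191). Among the highest were those of METTL3 at 1.21 (adjusted p = 0.00944), KRT80 at 1.13 (adjusted p = 0.00501), HBEGF at 1.13 (adjusted p = 0.0201) and WNT9A at 1.12 (adjusted p = 0.0171). What lies behind these differences was not tested.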

How the results depend on the processing

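Of 111 named genes in the Y396E to wild-type comparison, 74 kept their direction and their side of the threshold in every setting that tested them. There were 20 settings, and some of them tested only a part of these genes. IGF2BP2 (0.13) and XBP1 (0.051) turned with total counts and MYC (−0.00195) with TMM over background genes, the bead-level genes. Leaving out 1 library gave −1.14 to 1.73 for IQGAP1, −0.76 to 1.56 for LIMA1 and −0.37 to 1.70 for KIAA1671, and −0.12 to 2.75 for IQGAP1 against RQ, each lowest without Y396E control replicate 3. Counts of genes are given below as lower and higher. For Y396E against wild-type they were 485 and 3668 with total counts, 1777 and 692 with TMM over background genes, 568 and 605 with glmTreat, 654 and 507 among genes 4-fold over the parental library, 714 and 551 with only the groups compared, and 573 higher with only control libraries. Leaving out 1 library gave 792 to 1206 lower and 930 to 1450 higher. For the interaction, the lower count was 129 with DESeq2 size factors, 538 with total counts, 89 with TMM over background genes and 452 with all biotypes, the higher count was 132 with the DESeq2 Wald test, and both were 55 and 9 with glmTreat, 75 and 4 among genes 4-fold over the parental library and 437 and 132 with the replicate block. Leaving out 1 library gave 78 to 320 lower and 17 to 74 higher, with the fewest without WT arsenite replicate 1 (78 and 17) and the most without WT control replicate 3 (320 and 74). Against S181E the counts were 347 and 702 with total counts, 1168 and 121 with TMM over background genes, 46 and 5 with glmTreat, 351 and 106 at 4-fold, 261 and 123 with only the groups compared, 97 and 9 with only control libraries and 1252 and 1149 with the replicate block, with 474 higher by DESeq2. Leaving out 1 library gave 130 to 805 lower and 41 to 428 higher. Against RQ they were 550 and 2295 with total counts, 1592 and 597 with TMM over background genes, 465 and 380 with glmTreat, 565 and 406 at 4-fold, 664 and 533 with only the groups compared and 654 and 426 with only control libraries. Leaving out 1 library gave 764 to 1177 lower and 759 to 1139 higher. The bead-level genes and the 4-fold filter were chosen from the S181E and RQ control libraries. In the tests against S181E and RQ, those settings are therefore not independent of the libraries compared. The cause of the differences between settings was not tested. Same-numbered wild-type and Y396E control libraries deviated together for replicates 2 and 3 (r = 0.27 and 0.31) but not for replicate 1 (r = 0.02). Wild-type replicate 1 correlated best with Y396E replicate 2 (r = 0.12). The replicate block gave 1149 lower and 1179 higher for Y396E against wild-type. Depth limits the genes near the filter and, in the parental library, the enrichment values.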

Other observations

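In Y396E control replicate 3, 12 mRNAs lay more than 4-fold above the higher of the other 2 Y396E control libraries, and none did so in any of the other 5 libraries of the comparison. Those named here encode the junction protein CGN, the spectrins SPTBN1 and SPTAN1, the actin-binding DBN1, LIMA1 and SVIL, the motor MYO6, UTRN, SYNE2, the scaffold IQGAP1 and KIAA1671. IQGAP1 was at 40.0, 42.7 and 561 CPM in Y396E and at 97.2, 56.0 and 121 CPM in wild-type. The same mRNAs were 2.96 to 9.46 times as high in S181E control replicate 3 as in the higher of its other libraries, 0.487 to 2.00 times in wild-type and 0.806 to 2.84 times in RQ. None was called between Y396E and wild-type. The limit of 4-fold was chosen after the values were seen, and no test was made.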
